A study of Homo sapiens with 4 samples.

Results

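Ribosomal protein gene promoters were examined in ATAC-seq peak lists of OPM-2, an established human multiple myeloma cell line. The genes were the protein-coding genes of the RefSeq table named RPL or RPS with a number, together with RPLP0, RPLP1, RPLP2 and RPSA, and without the RPS6K kinase genes. This gave 81 of 19974 protein-coding genes, 49 for proteins of the large ribosomal subunit and 32 for the small subunit. OPM-2 cells were kept for 72 h with the vehicle DMSO, with 1 µM all-trans retinoic acid (ATRA, which activates retinoic acid receptors), with 1 µM pomalidomide (POM, a drug that binds cereblon), or with both agents (ATRA+POM). In ATAC-seq the Tn5 transposase cuts and tags open DNA, so a peak marks accessible chromatin. Because every group is a single library (1 each), differences lack replicates and carry no p-value, and the 95% intervals cover counting error only. No molecular identifiers are named in the labels, so reads need not be independent molecules.

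Ribosomal proteins assemble with ribosomal RNA into the small and large subunits of the ribosome, and growing cells make all of them in balanced amounts. Their genes are short, are transcribed strongly in nearly every cell type, and often carry small nucleolar RNAs in their introns. Most of their mRNAs begin with a C followed by a run of pyrimidines, the terminal oligopyrimidine tract, through which mTOR signalling controls their translation. Myeloma cells secrete antibody chains and have a high demand for protein synthesis.

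The start regions of 7 members are shown because the values below turn on them. RPLP0 had the highest pileup of all members in DMSO. Against DMSO, RPL34 had the highest ratio in POM and RPS3A the highest in ATRA+POM. RPL19 was the member whose call differed between libraries, and RPL36, RPL7A and RPS15 were among the lowest ratios. Each is 170 bases of RefSeq sequence (GRCh38.p14), 5′ to 3′ on the gene's strand, with 150 bases before the transcription start and the first 20 transcribed bases. The start is base 151. Capitals mark matches, on either strand, to the motifs named further down, and the pyrimidine tract at the start.
RPLP0: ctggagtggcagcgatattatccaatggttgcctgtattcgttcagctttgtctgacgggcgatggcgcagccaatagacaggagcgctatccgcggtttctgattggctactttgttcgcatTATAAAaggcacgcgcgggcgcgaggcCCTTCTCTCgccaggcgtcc
RPS3A: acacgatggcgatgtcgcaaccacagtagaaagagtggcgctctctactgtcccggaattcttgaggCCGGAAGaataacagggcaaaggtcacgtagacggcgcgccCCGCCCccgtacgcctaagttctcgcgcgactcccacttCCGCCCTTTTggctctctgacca
RPL34: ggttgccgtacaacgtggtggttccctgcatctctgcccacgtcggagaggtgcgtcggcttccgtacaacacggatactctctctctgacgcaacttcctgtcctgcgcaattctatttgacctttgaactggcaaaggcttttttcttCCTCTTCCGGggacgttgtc
RPL19: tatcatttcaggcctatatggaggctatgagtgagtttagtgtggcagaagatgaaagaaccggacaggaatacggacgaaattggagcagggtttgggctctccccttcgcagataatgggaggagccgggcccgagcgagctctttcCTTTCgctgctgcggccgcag
RPL36: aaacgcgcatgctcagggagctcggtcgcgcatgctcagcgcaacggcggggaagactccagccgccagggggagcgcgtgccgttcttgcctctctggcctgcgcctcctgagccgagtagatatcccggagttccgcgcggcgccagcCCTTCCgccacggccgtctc
RPL7A: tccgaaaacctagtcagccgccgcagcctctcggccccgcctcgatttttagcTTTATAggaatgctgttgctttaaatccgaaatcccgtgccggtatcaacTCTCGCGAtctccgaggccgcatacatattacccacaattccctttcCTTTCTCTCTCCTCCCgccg
RPS15: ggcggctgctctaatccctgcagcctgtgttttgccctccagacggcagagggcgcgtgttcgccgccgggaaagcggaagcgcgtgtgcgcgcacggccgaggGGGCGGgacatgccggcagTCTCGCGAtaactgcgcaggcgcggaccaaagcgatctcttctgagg
These lie at chr12:120201092-120201261 (minus strand, RPLP0), chr4:151099478-151099647 (RPS3A), chr4:108620426-108620595 (RPL34), chr17:39200173-39200342 (RPL19), chr19:5690145-5690314 (RPL36), chr9:133348068-133348237 (RPL7A) and chr19:1438246-1438415 (RPS15), the last 6 on the plus strand. RPLP0 and RPL7A carry a TATAAA match, in RPL7A on the opposite strand. RPS3A carries CCGGAAG and, on the opposite strand, GGGCGG. In RPL34 the opposite-strand CCGGAAG match lies downstream of the start and overlaps the pyrimidine tract. RPL7A and RPS15 share the 8-base motif TCTCGCGA. RPL19 and RPL36 have no marked match other than the tract, and RPS15 has no tract by the rule used.

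In the libraries themselves, 76402, 76636, 69162 and 85434 peaks entered from the DMSO, ATRA, POM and ATRA+POM lists. The depth, estimated as the recovered background over the list's smallest peak width, was 94.1%, 33.6% and 62.7% of that of DMSO for ATRA, POM and ATRA+POM, and median peak widths were 577, 580, 354 and 517 bp. Of 9 plasma cell and myeloma marker genes, 7 had a promoter peak in DMSO and ATRA and 8 in both POM libraries, with JCHAIN missing throughout. Of the translocation genes of this line, NSD2 had a peak in every library and FGFR3 in every library but ATRA. Of 3 myeloid and 2 epithelial markers none had a peak, of 3 T cell markers CD3E had one, and of 2 erythroid markers HBA1 had one in DMSO alone.

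A promoter peak, taken as the peak of highest −log10 q-value with its summit within 1 kb of the gene start, was found for 77 members in DMSO, 77 in ATRA, 76 in POM and 77 in ATRA+POM. Of all protein-coding genes, 60.1%, 59.6%, 57% and 58% had one in the same order. In all 4 lists, 76 of 81 members (93.8%) had a promoter peak against 54% of all protein-coding genes. Mitochondrial ribosomal protein genes, which serve the separate ribosome of mitochondria, reached 72 of 77 (93.5%). Nearly all members were thus listed under every treatment, and the same held for the mitochondrial set.

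The member whose call changed was RPL19, a large-subunit protein. Its promoter peak (chr17:39199954-39200719 in DMSO) had a summit pileup, the number of reads stacked at the summit as recovered from the deposited values, of 123 in DMSO (102 to 147), 98 in ATRA (79.6 to 119) and 24 in ATRA+POM (15.4 to 35.7). POM listed no peak within 1 kb, and the nearest lay 2340 bp from the gene. RPL19 was also the weakest member in DMSO by rank.

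For RPS18, RPS9 and RPL10L, among others, the lists used here held no peak within 1 kb, and members without a peak enter no comparison. These genes each lay in a stretch without any listed peak in the 4 libraries, 2137.6 kb around RPS18 on chromosome 6 with 100 other protein-coding genes, 1060.9 kb around RPS9 on chromosome 19 with 41, and 170.7 kb around RPL10L on chromosome 14 with none. Nothing about their own promoters is read from this. RPL10L is a retrogene paralog of RPL10 expressed mainly in testis, while RPS18 and RPS9 are core small-subunit proteins.

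The rule by gene body took in 96, 94, 88 and 89 peaks in DMSO, ATRA, POM and ATRA+POM, of which 19, 17, 12 and 12 were not the promoter peak. These further peaks had lower median pileups, 54, 51, 29 and 50.5 against 224, 203, 53 and 111 for promoter peaks. RPS24 had 3 of them in DMSO, 2 in ATRA, 3 in POM and 3 in ATRA+POM. RPL26, RPL27A, RPL4, RPL41 and RPL6 had 1 in every library. In DMSO the further peak had a higher pileup than the promoter peak in RPL27A (349 against 299), RPL41 (360 against 214), RPL4 (228 against 148), RPL6 (202 against 128) and RPS29 (221 against 139). The promoter peak counted for RPS29 also lies at the start of LRR1. In RPL6 the further peak (chr12:112418469-112419800) covers the gene boundary at 112418835. Which peak serves the main start of RPS29 and RPL6 was not determined. In RPL28 there were 2 in DMSO and 1 in ATRA, and the POM and ATRA+POM lists held none.

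Summits sat close to the starts. Over 61 members with a listed start and a peak, the DMSO summit lay at a median of 63 bp before the start (middle range 123 to 23 bp before), 36 summits were within 100 bp, and 49 were upstream and 12 downstream. Against DMSO, summits moved by a median of 5 bp in ATRA, 39.5 bp in POM and 41 bp in ATRA+POM, and by over 250 bp for 0, 3 and 0 members. In at least 15 members another protein-coding gene starts within 1 kb of the summit, and the peak cannot be assigned to either gene. Examples are NKIRAS1 beside RPL15, TRAPPC4 beside RPS25, LIAS beside RPL9 and BTK beside RPL36A. Only the 15812 of 19974 protein-coding genes with a listed start were searched, so the count is a minimum. The peak counted for RPL3L, a paralog known from heart and skeletal muscle, lay at the start of MSRB1.

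Member pileups were compared with those of all promoters within each list. The pileup of members in DMSO ran from 96 (RPS7) to 507 (RPLP0) with a median of 224, against a median of 189 over all protein-coding promoter peaks. The medians were 203 against 161 in ATRA, 53 against 52 in POM and 111 against 91 in ATRA+POM. Members ranged from 92 to 516 in ATRA, from 13 to 134 in POM and from 24 to 295 in ATRA+POM. The libraries differ in depth, so these raw pileups are not comparable between libraries without the scale introduced below.

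**Figure D1:**
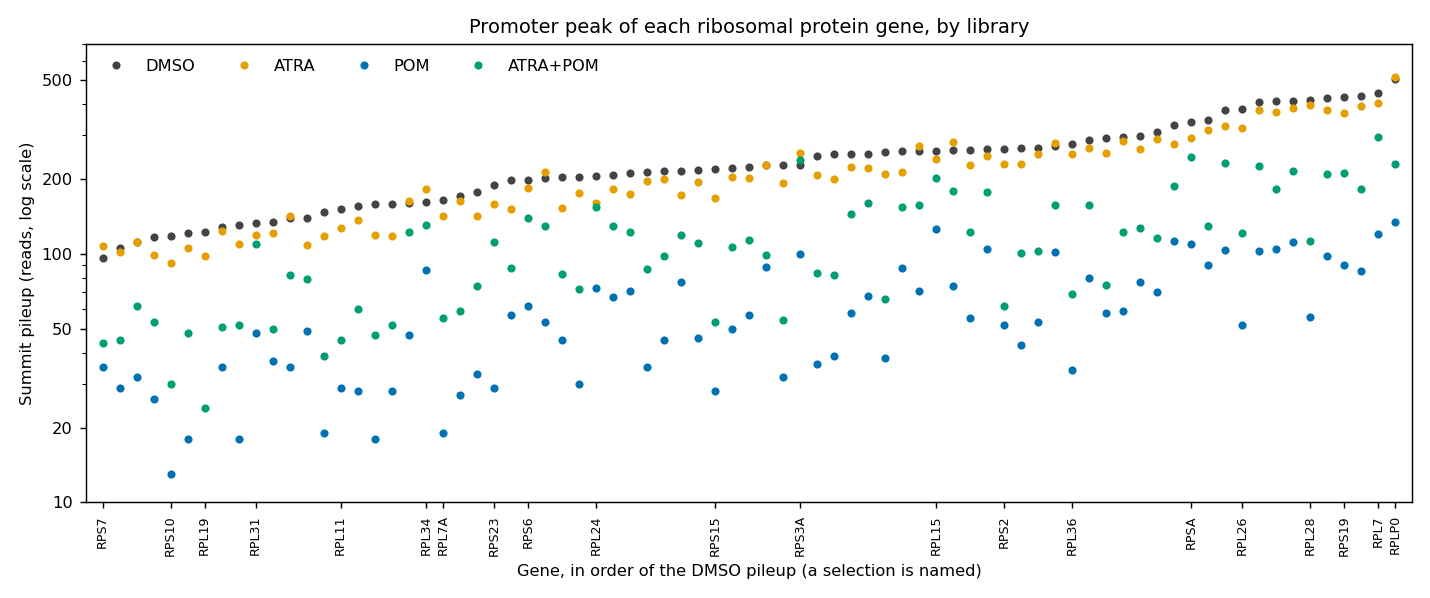
Summit pileup in reads (log axis) of the promoter peak of each ribosomal protein gene, with genes ordered by the DMSO pileup, 1 point per library and a selection of genes named on the axis. DMSO (96 to 507) and ATRA (92 to 516) points lie close together for most genes, POM points (13 to 134) lie lowest for each gene that has one, and ATRA+POM points (24 to 295) lie mostly between.

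Ranks allow a reading within each library. Among the 42930 regions called in all 4 lists, ranked by −log10 q-value in each library, the median member stood at percentile 89.3 in DMSO, 90.2 in ATRA, 81.2 in POM and 84.2 in ATRA+POM. All protein-coding promoter peaks stood at 84.8, 85.0, 79.1 and 79.3, and mitochondrial ribosomal protein genes at 88.5, 88.7, 79.9 and 81.9. The lower quartile of the members fell further than their median, from 84.4 in DMSO and 84.0 in ATRA to 65.2 in POM and 64.4 in ATRA+POM, where that of all promoter peaks was 69.1, 68.8, 54.7 and 54.3. The number of members at or above percentile 90 was 36, 39, 25 and 29, and the number below 50 was 0, 0, 9 and 4. Of the 12003, 11912, 11376 and 11593 promoter peaks of all protein-coding genes, 4274, 4277, 3397 and 3451 were at or above 90 and 1891, 1908, 2497 and 2639 below 50. Among the 20000 strongest peaks of each list were 77, 77, 63 and 70 members. Of the promoter peaks of all protein-coding genes, 9930, 9807, 8448 and 8593 were among them, so fewer in the libraries with POM as well. By −log10 q-value, the ranks of members were spread more widely in the libraries with POM. Ranked by the deposited fold among all peaks of a list, the member medians were 86.5, 90.3, 86.3 and 88.4 in DMSO, ATRA, POM and ATRA+POM, so DMSO and POM were close on that measure.

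**Figure D2:**
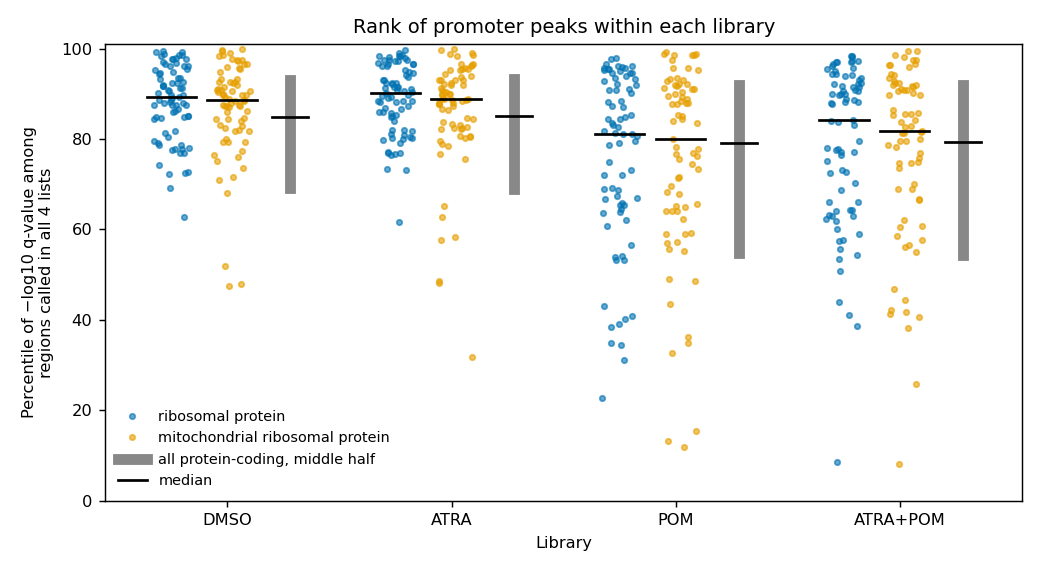
Percentile of the promoter peak's −log10 q-value among the 42930 regions called in all 4 lists, by library, for ribosomal protein genes (blue points), mitochondrial ribosomal protein genes (orange points) and all protein-coding genes (grey bar, middle range from lower to upper quartile), with black lines at the medians. Member medians are 89.3, 90.2, 81.2 and 84.2, and low points down to 22.7 in POM and 8.59 in ATRA+POM appear only in libraries with POM among the ribosomal protein genes.

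The order of members in DMSO was led by RPLP0, RPL26, RPS25 and RPS19. RPLP0, the base of the ribosomal stalk that recruits translation factors, stood at percentile 99.4, with pileups of 507 in DMSO, 516 in ATRA, 134 in POM and 230 in ATRA+POM. RPL26, a large-subunit protein also known to bind p53 mRNA, stood at 99.3 in DMSO and 83.1 in POM, with pileups of 382, 320, 52 and 121. RPS25 (99.1) and RPS19 (98.9) followed. RPS19, the gene most often mutated in Diamond-Blackfan anaemia, had pileups of 430, 370, 90 and 211. RPLP0 and RPS19 thus kept a high place in every library (97.6 and 93.2 in POM), while RPL26 fell back with POM. The 5 members of lowest rank in DMSO were RPL19 (62.8), RPL17 (69.2), RPS7 (72.3), RPL8 (72.6) and RPL38 (72.6). The pileups of these 5, from 96 to 135, had overlapping counting intervals.

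Member peaks were slightly narrower than those of other promoters. Median widths were 1040, 996, 678 and 883 bp in DMSO, ATRA, POM and ATRA+POM, against 1122, 1087, 752 and 954 bp for all protein-coding promoter peaks. The median of each gene's width over its DMSO width was 0.973, 0.659 and 0.864 in ATRA, POM and ATRA+POM for members and 0.99, 0.689 and 0.887 for all promoters. Width depends on depth, and the widths of members followed those of all promoters. Among the widest in DMSO were RPL28 (2286 bp), RPL7 (2072 bp), RPS3 (1845 bp) and RPL10 (1694 bp), and the narrowest RPL41 (624 bp), RPS24 (645 bp), RPL6 (649 bp), RPL29 (666 bp) and RPL14 (715 bp). RPL7 kept its breadth, at 2192, 1757 and 2062 bp in ATRA, POM and ATRA+POM, and RPL10, a late-joining protein near the peptidyl transferase centre, also did, at 1451, 1423 and 1647 bp. RPS3 had 1795, 579 and 793 bp, with a separate peak of 295 bp inside its DMSO interval in ATRA+POM, and RPS10 went from 1203 bp in DMSO to 1141, 277 and 653 bp.

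**Figure D3:**
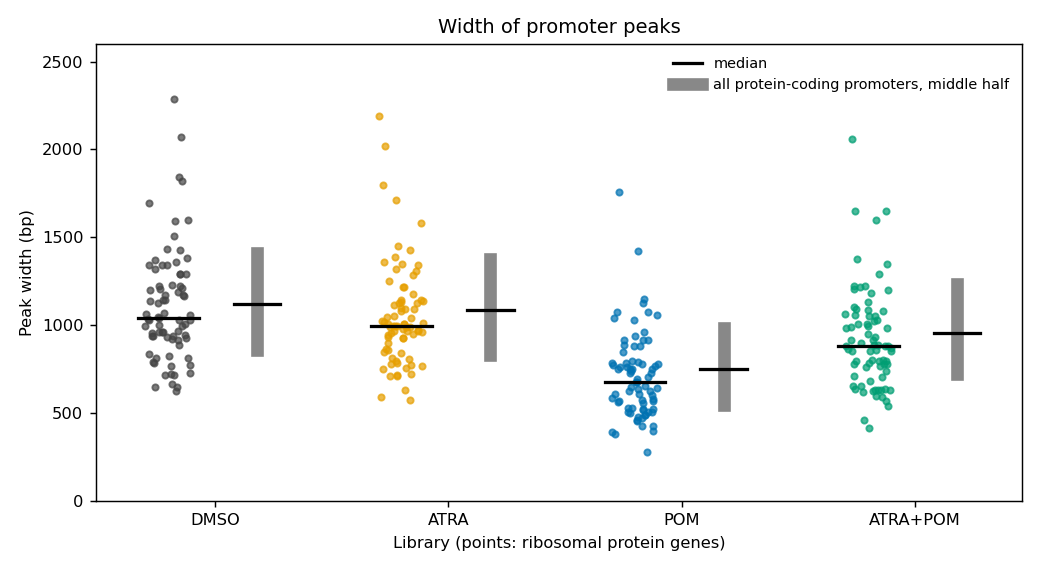
Width in bp of the promoter peak of each ribosomal protein gene (points) by library, beside the range from lower to upper quartile over all protein-coding promoter peaks (grey bars), with black lines at the medians. Member medians of 1040, 996, 678 and 883 bp lie a little under those of all promoters (1122, 1087, 752 and 954 bp) in every library.

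To compare libraries, pileups were divided by the median pileup ratio to DMSO over the 42930 shared regions, which was 0.873 (ATRA), 0.395 (POM) and 0.707 (ATRA+POM), and differences are given as log2 ratios on this scale. Most shared regions are no promoters. On this scale all promoters had a median of 0.02 in ATRA, −0.48 in POM and −0.48 in ATRA+POM, each against DMSO, and −0.46 for ATRA+POM against ATRA, so each POM comparison is also given relative to all promoters. The choice of measure matters here. The deposited fold divides the summit pileup by the local background of the same library, with 1 added to each. The recovered background behind the depth estimate was 2.36 in DMSO and 0.55 in POM, so the added 1 weighs differently between libraries. Here and below, fold ratios between libraries were scaled by their own median over the shared regions. This scale was 0.935, 1.2 and 1.11 for ATRA, POM and ATRA+POM against DMSO. So scaled, the fold gave member medians of 0.10, 0.03 and −0.02 in the same order. It gave −0.11 for ATRA+POM against ATRA and 0.00 for ATRA+POM against POM. The lower values described below thus hold for pileup, but not for the deposited fold.

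With ATRA alone, ribosomal protein promoters were close to their DMSO values. The median log2 ratio of 77 members was 0.03, 44 lay above 0 and 33 below, and 0 members were past 1.5-fold in either direction, against 1.06% of all promoters higher and 4.34% lower (0.971% and 4.6% relative to the median of all promoters). The SD over members was 0.14, no larger than the 0.15 that counting error alone gives, whereas all promoters had an SD of 0.29 with 0.20 from counting. The highest were RPS7 (0.37), RPL34 (0.37), RPS3A (0.36), RPL39L (0.31) and RPS27A (0.28), and among the lowest were RPS27L (−0.22), RPL23 (−0.22), RPL14 (−0.19) and RPS15 (−0.19). RPL34, with pileups of 162 in DMSO and 183 in ATRA, had an interval of 0.06 to 0.69, and RPS3A, with 228 and 256, one of 0.10 to 0.63.

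With POM alone, the members were lower, and more spread out than with ATRA alone. The median of 76 members against DMSO was −0.71, 72 lay below 0 and 4 at or above, and 45 (59.2%) were past 1.5-fold lower and 0 higher, against 43.3% of all promoters lower and 4.57% higher. Mitochondrial ribosomal protein genes had a median of −0.65, with 42 of 73 lower. Relative to the median of all promoters, 22 members were past 1.5-fold lower and 3 higher, where 17.2% of all promoters were lower and 18% higher on that scale. The SD over members was 0.54, of which counting gives 0.24. All promoters had an SD of 0.63, with 0.27 from counting, so the spread was not particular to members. Most of the shift was thus that of promoters in general, with a further difference of −0.23 between the medians. On the deposited fold 7 of 76 members were lower and 1 higher, against 6.89% and 4.16% of all promoters.

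RPS10, a small-subunit protein, had the lowest ratio in POM. Its pileup was 118 in DMSO, 92 in ATRA, 13 in POM (6.92 to 22.2) and 30 in ATRA+POM, a log2 ratio of −1.84 (−2.79 to −1.01) for POM against DMSO. RPL23, which can bind MDM2, went from 159 in DMSO and 119 in ATRA to 18 in POM and 47 in ATRA+POM (−1.80 for POM). RPL7A, host of small nucleolar RNAs, had pileups of 165, 142, 19 and 55 (−1.78 for POM). Its DMSO peak of 1598 bp was covered in POM by a promoter peak of 526 bp and a separate peak of 282 bp. RPS15, which acts late in small-subunit maturation, had 220, 168, 28 and 53 (−1.64 for POM). For these 4 genes both libraries with POM lay past 1.5-fold under DMSO.

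For RPL36 the reading depended on the measure. Its pileups were 277 in DMSO, 252 in ATRA, 34 in POM and 69 in ATRA+POM, a log2 ratio of −1.69 (−2.25 to −1.17) for POM. By the deposited fold, on the fold's own scale, the same comparison gave 0.02. Its rank among the shared regions went from percentile 79.5 in DMSO and 81.7 in ATRA to 40.8 and 44.0.

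At the other end, RPL34 and RPL15 were a little higher in POM than in DMSO. RPL34 had pileups of 162, 183, 86 and 131 in DMSO, ATRA, POM and ATRA+POM, and a ratio of 0.43 (0.03 to 0.81) for POM. RPL15, whose peak also covers the start of NKIRAS1, had 260, 242, 126 and 202, a ratio of 0.29 (−0.02 to 0.61). RPS3A had 228, 256, 100 and 239, a ratio of 0.15 (−0.20 to 0.50). RPL37 (0.00) and RPL3L (−0.01), whose peak is that of MSRB1, completed the 5 highest. None of the 5 was past 1.5-fold.

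**Figure D4:**
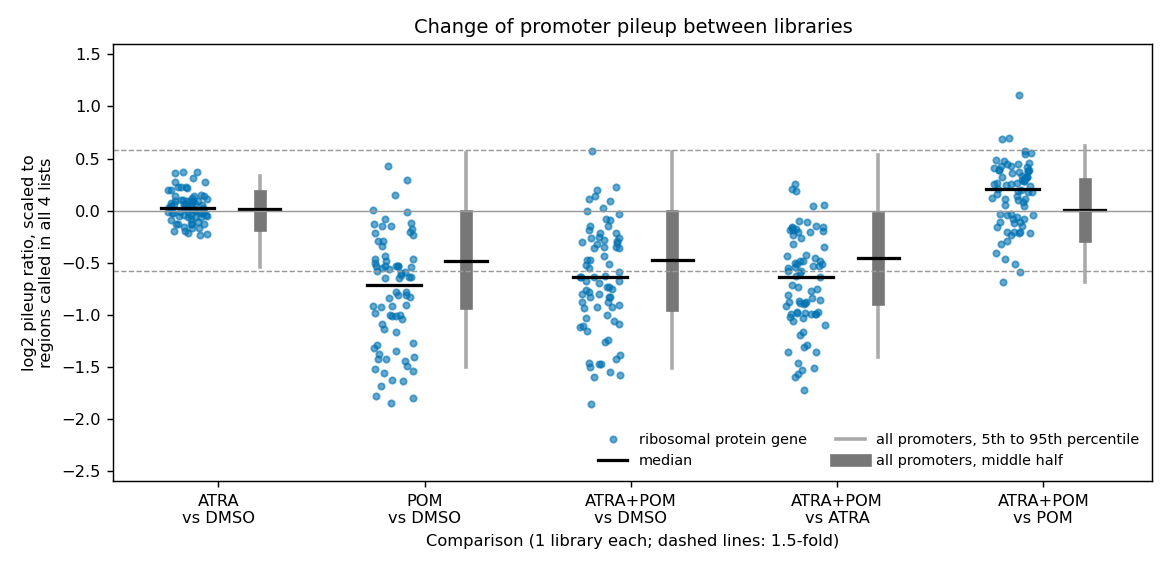
Log2 pileup ratio of each ribosomal protein promoter (blue points) in 5 comparisons of 1 library each, scaled to the regions called in all 4 lists, beside all protein-coding promoters (dark grey bar from lower to upper quartile, light line from the 5th to the 95th percentile); black lines are medians and dashed lines mark 1.5-fold. Members cluster at 0 for ATRA vs DMSO (median 0.03) and lie lower and wider for the comparisons of a library with POM against one without (medians −0.71, −0.64 and −0.64).

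With both agents, the picture was close in size. Against DMSO the median of 77 members was −0.64, with 43 (55.8%) past 1.5-fold lower and 0 higher, against 43.2% of all promoters lower and 4.64% higher. Against ATRA alone it was −0.64, with 41 of 77 lower and 0 higher, against 41.2% lower and 4.37% higher. Relative to all promoters, 16 members were lower and 5 higher against DMSO (all promoters 18% and 17.6%), and 14 lower and 3 higher against ATRA (16.2% and 15.8%). On the deposited fold 1 member was lower in each of the comparisons, against 5.47% of all promoters for DMSO and 5.45% for ATRA. The comparisons of POM and of ATRA+POM with DMSO share the DMSO library.

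RPL19 was lowest against DMSO at −1.86 (−2.55 to −1.22), and at −1.73 against ATRA. RPS2, which lines the mRNA entry side of the small subunit, had pileups of 265 in DMSO, 231 in ATRA, 52 in POM and 62 in ATRA+POM, a ratio of −1.60 (−2.02 to −1.19) against DMSO and −1.59 against ATRA. RPS21 had 228, 193, 32 and 54, a ratio of −1.58 against DMSO and −1.53 against ATRA. RPS15 (−1.55) and RPL36 (−1.51) followed against DMSO, and RPL36 (−1.56) and RPL28 (−1.51) against ATRA. RPS2, RPS21, RPS15, RPL36 and RPL28 were also past 1.5-fold lower in POM alone.

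The highest ratio against DMSO was that of RPS3A, 0.57 (0.30 to 0.84), where ATRA+POM had a pileup of 239 (210 to 271) and DMSO 228 (199 to 260) in spite of the lower depth of ATRA+POM. RPL31 (0.23), RPL34 (0.19), RPL15 (0.14) and RPL37A (0.11) followed. Against ATRA the highest were RPL24 (0.26, −0.07 to 0.59), RPS3A (0.20), RPL31 (0.19), RPSA (0.05) and RPL15 (0.04), all short of 1.5-fold. RPS3A, RPL31 and RPL15 were in the upper 5 of both comparisons, which share the ATRA+POM library.

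ATRA added to POM gave small differences. The median of 76 members for ATRA+POM against POM was 0.20, against 0.01 for all promoters and 0.06 for mitochondrial ribosomal protein genes, and 51 of 76 lay above 0. Past 1.5-fold, 3 members were higher and 2 lower, against 6.24% and 7.18% of all promoters (5.98% and 7.53% relative to their median, with the same member counts). The highest was RPS23, a protein of the decoding centre, with pileups of 190 in DMSO, 159 in ATRA, 29 in POM and 112 in ATRA+POM and a ratio of 1.11 (0.51 to 1.75). POM alone was the low library for RPS23, and the other three lay close to each other once scaled (ATRA+POM against DMSO −0.26). RPL7A (0.69, −0.08 to 1.53), RPL35A (0.69, −0.11 to 1.55), RPL29 (0.58) and RPL23 (0.55) followed, and the lowest were RPL3L (−0.69), RPS2 (−0.59), RPS7 (−0.51), RPL13 (−0.47) and RPL8 (−0.40). Pileups of RPL7A, RPL35A, RPL29 and RPL23 in POM were 19, 18, 18 and 18, so their intervals are wide.

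Members were arranged in a like order by POM with and without ATRA. The log2 ratio of POM against DMSO and that of ATRA+POM against ATRA, which share no library, correlated across 76 members with a Pearson r of 0.74 and a Spearman rho of 0.75. This describes genes and not replicates, the points share the scale and the depth of their libraries, and the same r over 10778 promoters of all genes was 0.75. The likeness was thus that of promoters in general.

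**Figure D5:**
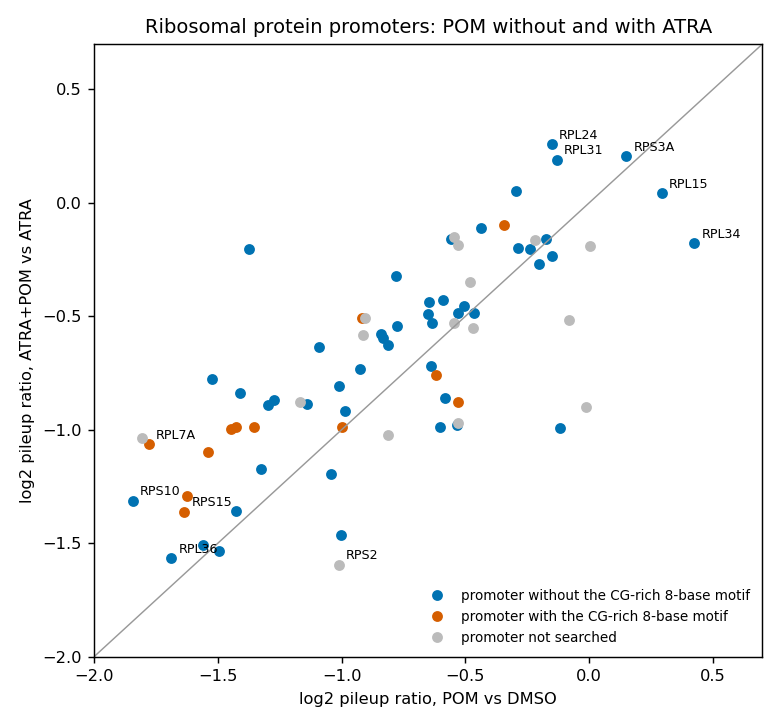
Log2 pileup ratio of ribosomal protein promoters for POM vs DMSO (x axis) and ATRA+POM vs ATRA (y axis), 1 point per gene, with the diagonal as a grey line. Orange points, whose promoters carry TCTCGCGA, range from −1.78 to −0.34 on the x axis, blue points lack it, and grey points were not searched; RPS3A, RPL34, RPL15, RPL24 and RPL31 stand at the upper right (r = 0.74, n = 76).

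By subunit, the large-subunit members had a median of −0.62 and the small-subunit members of −0.84 for POM against DMSO, with 25 of 47 and 20 of 29 lower. For ATRA+POM against DMSO the order turned, at −0.74 and −0.52, and against ATRA the medians were −0.82 and −0.53. Neither subunit was thus lower in every comparison.

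The stalk proteins moved with the median member. RPLP0 had a ratio of −0.58 (−0.87 to −0.30) for POM against DMSO and −0.64 (−0.87 to −0.41) for ATRA+POM against DMSO. RPLP1, with pileups of 222, 204, 50 and 107, had −0.81 and −0.55, and RPLP2, with 433, 393, 85 and 182, had −1.01 and −0.75. RPL5 and RPL11, which with the 5S ribosomal RNA bind MDM2 when ribosome assembly fails, differed from each other. RPL5 had pileups of 259, 213, 88 and 154 and a ratio of −0.22 (−0.58 to 0.14) for POM, while RPL11 had 151, 127, 29 and 45 and one of −1.04 (−1.67 to −0.46). The counting intervals of the pair overlap for POM, but not for ATRA+POM against DMSO, at −0.25 (−0.55 to 0.04) for RPL5 and −1.25 (−1.76 to −0.76) for RPL11.

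In the small subunit, RPS14, the gene lost in 5q- syndrome, had pileups of 178, 142, 33 and 74 and ratios of −1.09 for POM and −0.77 for ATRA+POM against DMSO. RPS19 had −0.92 and −0.53. RPS6, the substrate of the S6 kinases, had pileups of 199, 185, 62 and 140 and ratios of −0.34 (−0.78 to 0.07) and −0.01 (−0.33 to 0.31). RPSA, also described as a laminin receptor, had pileups of 341, 292, 110 and 245 and ratios of −0.29 (−0.62 to 0.02) and 0.02 (−0.22 to 0.26). RPS6 and RPSA thus stood near their DMSO level while RPS14 and RPS19 were lower with POM alone. In the large subunit RPL10 had pileups of 268, 252, 53 and 103 and ratios of −0.88 for ATRA+POM against DMSO and −0.99 against ATRA.

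The paralogs among the members did not form a group of their own. RPL39L, known from testis and some tumours, had pileups of 261, 283, 74 and 180, a ratio of 0.31 (0.06 to 0.56) for ATRA and −0.48 for POM. RPS27L, a p53 target, had 204, 153, 45 and 83, with −0.22 for ATRA and −0.84 for POM. Nearness to the median member was taken as the summed absolute difference of the ratios of ATRA, POM and ATRA+POM against DMSO. The nearest members were RPL18 (0.13), RPS25 (0.19), RPL38 (0.19), RPL27A (0.19) and RPLP1 (0.23). RPL18 had pileups of 413, 372, 105 and 183.

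Other genes of the translation machinery were read beside the members. Of 20 translation factor and other genes with pyrimidine-tract mRNAs, 18 had a promoter peak in all lists, with a median ratio for POM against DMSO of −0.37 and 4 past 1.5-fold lower, where 43.3% of all promoters were lower and 4.57% higher. Of 20 ribosome biogenesis and RNA polymerase I genes, 19 had one, with a median of −0.89 and 13 lower. Of 10 regulators, among them MYC, MTOR and LARP1, all had one, with a median of −0.20, 3 lower and 1 higher. For ATRA+POM against DMSO the medians were −0.19, −0.80 and −0.44. The members, at −0.71 and −0.64, stood between the translation factor and biogenesis lists in both comparisons, and differences between these lists were not tested.

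What the promoters share in sequence was read in the 300-base window of RefSeq, 250 bases before to 50 after the start, for the 64 members in the table, and for 15812 protein-coding genes in all. A start pyrimidine tract, a C within 5 bases of the start followed by at least 4 of C or T, was present in 82.8% of members, 28% of all promoters and 23.2% of mitochondrial ribosomal protein promoters. RPL15, RPL9, RPS26, RPL6, RPL10L, RPS29, RPS27L, RPL27, RPL17, RPS15 and RPS4X had none by this rule. TCTCGCGA, searched like the others on both strands, was present in 18.8% of members (12 of 64) against 2.03% of all promoters and 2.9% of the mitochondrial set. CCGGAAG, the core of ETS factor sites, was present in 35.9% against 16.5% and 43.5%. AAGATGGC, the YY1 motif, was present in 9.38% against 4.67% and 30.4%.

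The remaining motifs were no more frequent in members than in all promoters. GGGCGG, the SP/KLF box, was present in 59.4% of members and 64.2% of all promoters, TATAAA in 9.38% and 12.4%, the E-box CACGTG in 6.25% and 10.9%, and the palindromic NRF1 motif in 1.56% and 1.99%. TATAAA occurred in RPL7A, RPS3, RPLP0, RPL10L, RPS28 and RPL3. Median GC content was 59.7% against 62.3%. A match is a description of letters and not of a bound site.

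Members with TCTCGCGA were RPL10A, RPS6, RPL12, RPL7A, RPL27A, RPL4, RPL26, RPL17, RPS15, RPS28, RPS19 and RPL10. Their median ratio for POM against DMSO was −1.39, with 10 of 12 past 1.5-fold lower, and that of the 48 other members with a searched promoter and a ratio was −0.65, with 29 lower. For ATRA+POM against ATRA the medians were −0.99 and −0.60. In promoters of all other protein-coding genes the medians with and without the motif were −0.50 (276 genes) and −0.47 (8839 genes) for POM against DMSO. Of these genes, 43.1% with and 42.7% without the motif were past 1.5-fold lower. The 2 of the 12 not past 1.5-fold were RPS6 and RPL17, at −0.34 and −0.53. This split was singled out from 8 features after the values were seen, and it was not tested.

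Position in the genome moved with the ratios. Ordered by the number of protein-coding genes within 500 kb, the 26 members with 1 to 8 genes around them had a median ratio for POM against DMSO of −0.47, the 25 with 9 to 21 of −0.78, and the 25 with 24 to 54 of −0.99. For ATRA+POM against DMSO the medians were −0.30, −0.64 and −0.83, and for ATRA against DMSO 0.09, −0.03 and 0.04. RPS3A, RPL34 and RPL15 each have 4 genes around them, RPL36 has 21, RPL7A 24 and RPS15 38. RPS23, with 1 gene, and RPL4, with 8 genes and a ratio of −1.62, were low in POM all the same. Across members, Spearman's rho between gene number and the ratio was −0.37 for POM and −0.48 for ATRA+POM against DMSO, and over all promoters −0.43 and −0.45, as descriptions across genes. The ratio also moved with the mean pileup (rho 0.42 and 0.47 in members), a value that includes the libraries compared. For the mean pileup, rho was 0.23 and 0.27 over all promoters and 0.53 and 0.41 in mitochondrial ribosomal protein genes. The part of gene density, of pileup and of depth in the member values was not tested.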

How the data were processed

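ATAC-seq peaks of OPM-2 cells were analysed, grouped by the treatment label with 1 library per group. Per the labels' protocols, nuclei were tagged with Tn5 and sequenced. The authors deposited, per library, a peak list and a summit list on hg38 (per the submitters' processing notes). For the aligner, the peak caller, filters and any Tn5 shift, names and settings were not given in the sources used here. Judged from the values, the deposited score is 10 times the −log10 q-value. The deposited fold is a ratio of summit pileup to local background, with 1 added to each. The summit's −log10 q-value and −log10 p-value are deposited in further columns. None is known to be scaled between libraries.

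Leaving out 5 peaks off chromosomes 1 to 22 and X, the pileup was recovered by solving fold and p-value under a Poisson tail, an assumption under which the deposited p-value came back within 0.01 (log10) for at least 99.93% of peaks in each list. Gene starts came from the RefSeq promoter table of GRCh38.p14, which held 64 of 81 members. The other 17 entered by either gene boundary. Mitochondrial ribosomal protein genes are those named MRPL or MRPS with a number. The scale between libraries was the median pileup ratio over 42930 of 122632 merged regions. The deposited fold and −log10 q-value were each scaled by their own median ratio over the same regions. Intervals are exact Poisson for pileups and exact binomial (Clopper-Pearson) for ratios. Python 3.11.15, numpy 2.4.6, pandas 2.3.3, scipy 1.17.1 and matplotlib 3.10.9 were used, and the pileup recovery and fold calls were tested on simulated data.

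The members and gene lists were chosen with earlier results of these data known. Genes named are those without a peak or with differing calls, the 5 highest and 5 lowest per comparison, the 5 at each end of rank and of width in DMSO, and 14 genes whatever their values. A few genes under this rule are not reported here. Genes singled out by motif, by neighbouring start or by further peaks were named after their values were seen. Alternatives covered the scale, the measure, the fold, the pileup minimum, the distance to the start, the rank and peaks shared with other genes.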

Additional observations from a re-analysis of the deposited data

How the results depend on the processing

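No paired analysis was possible because each group has 1 library, and no replicate could be left out for the same reason. Over all alternatives tried, 130 summary values stayed within the set limits, 42 moved and 1 changed sign. Counts of members with a promoter peak stayed within 1.5 times. They were 63 (POM) and 70 (ATRA+POM) among the 20000 strongest peaks. There, promoter peaks of all protein-coding genes numbered 8448 of 11376 and 8593 of 11593. Over genes with a listed start only, the member counts were 60 or 61 per library. Median widths stayed within 8 bp. The median rank moved from 94.0, 94.5, 88.2 and 92.0 among all peaks of a list (DMSO, ATRA, POM, ATRA+POM) to 89.3, 90.2, 81.2 and 84.2 among regions in all 4 lists, and to 86.5, 90.3, 86.3 and 88.4 among all peaks of a list when ranked by the deposited fold, so that the lower rank with POM depends on the measure.

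With the scale taken from shared promoter regions, the median log2 ratio was −0.24 for POM vs DMSO (22 members lower, 3 higher). It was −0.17 for ATRA+POM vs DMSO (17 and 5) and −0.15 for ATRA+POM vs ATRA (13 and 3). Of all promoters, 17.5% were lower and 17.8% higher for POM vs DMSO on this scale. The shares were 18.1% and 17.5% for ATRA+POM vs DMSO, and 14.9% and 17% for ATRA+POM vs ATRA. With the deposited fold the median was 0.10 for ATRA vs DMSO and 0.03 for POM vs DMSO, the change of sign (7 lower, 1 higher). It was −0.02 for ATRA+POM vs DMSO (1 lower), −0.11 for ATRA+POM vs ATRA (1 lower) and 0.00 for ATRA+POM vs POM (1 lower). Of all promoters, 6.89% were lower and 4.16% higher for POM vs DMSO on the fold. In the same order, 5.47%, 5.45% and 3.05% were lower in the comparisons of ATRA+POM. The cause of the change of sign was not tested. The deposited −log10 q-value, on its own scale, gave −0.81 for POM vs DMSO. It gave −0.65 for ATRA+POM vs DMSO and −0.82 for ATRA+POM vs ATRA. There 49, 40 and 47 members were lower, against 49%, 44.1% and 45.8% of all promoters. Summed pileup as the scale gave −0.60, −0.53 and −0.54, with 38, 36 and 38 lower (35.9%, 36.7% and 34.8% of all promoters). On the q-value the medians were 0.10 for ATRA vs DMSO and 0.30 for ATRA+POM vs POM. In the latter 16 were higher and 3 lower (15.3% and 11.2% of all promoters). For ATRA+POM vs DMSO 1 was higher, as with the scale from summed pileup (1), against 7.01% and 6.53% of all promoters.

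At 2-fold, 26, 19 and 16 members were lower in POM vs DMSO, ATRA+POM vs DMSO and ATRA+POM vs ATRA, and 1 higher and 0 lower in ATRA+POM vs POM. At a lower threshold, a log2 ratio of 0.32, 3, 1 and 1 were higher in ATRA, POM and ATRA+POM vs DMSO, and 25 higher and 5 lower in ATRA+POM vs POM. Promoters of all genes were not counted at these other thresholds, so the counts are not read as particular to members. For ATRA+POM vs POM, 0 were higher with a pileup of at least 30 in both, 1 was lower without peaks shared with other genes, and 0 were lower over genes with a listed start only, an alternative chosen after seeing the data. Among single genes, 159 values stayed and 40 moved. A change of sign was counted only for values past 1.5-fold, and among these RPL36 changed sign for POM vs DMSO on the deposited fold (0.02). Depth limits POM most: member pileups there started at 13, where the exact interval spans 6.92 to 22.2.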
